A study of Homo sapiens with 16 samples.

Results

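Estradiol was compared with its solvent in SW620 cells that carry estrogen receptor beta (ERB). SW620 is an established human colon cancer line. The comparison used 4 of the 16 RNA-seq libraries of the series, which also holds libraries of SW480 cells. Libraries I and II of the estradiol group came from SW620 cells transduced with ERB and kept for 24 h with 10 nM estradiol. Libraries I and II of the DMSO group came from the same ERB-transduced line kept for 24 h with DMSO. The SW620 libraries of untreated ERB cells, of cells transduced with an empty vector and of parental cells, also 2 each, entered the fit and are given beside some values. All 6 SW620 libraries labelled ERB carry the transduced receptor, and the labels say nothing of clones, the promoter that drives it or separate cultures. The p-values below therefore measure only the spread between libraries.

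ERB, the product of ESR2, is a nuclear receptor that binds estradiol, dimerises and attaches to estrogen response elements or to other DNA-bound factors, where it recruits coregulators. In the colon it is the main nuclear estrogen receptor and has been studied as a brake on proliferation. The GC content of a transcript is the share of its bases that are G or C. RNA-seq protocols can recover GC-rich and GC-poor transcripts unequally, and the size of that effect can differ between libraries, so differences between groups are often examined along this axis.

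The 4 libraries held between 12743940 reads (DMSO II) and 17369097 reads (DMSO I). ESR2 had 165 and 100 reads in DMSO I and II, 180 and 157 reads in estradiol I and II, and 162 and 187 reads in the untreated ERB libraries. It had 1 read in each SW620 empty vector library and 0 reads in both parental SW620 libraries, so each SW620 library labelled ERB carried the transcript. The TMM factors, which correct each library for its RNA composition, were 1.23 and 1.23 with DMSO, outside the range of 0.853 to 1.01 in the other 8 SW620 libraries. Of 15 colon epithelial markers, 14 had reads in at least 1 of the 4 libraries and CDX1 had none. Their summed level was 5560 and 4828 CPM, which is the read count scaled to the library total, with DMSO and 7934 and 9048 CPM with estradiol, and KRT20 had 1 read in every library. Fibroblast markers summed to between 12.7 and 18.2 CPM, leukocyte markers to between 26.7 and 31.6 CPM and endothelial markers to between 1.18 and 1.93 CPM. PTPRC, CD3D, PECAM1, CDH5, COL1A2 and COL3A1 had 0 reads in all 4. Other members had reads in all 4: COL1A1 14 to 29, PDGFRB 39 to 66, CD8A 21 to 28 and LYZ 6 to 14. In all, 5 of 13 fibroblast, 6 of 13 leukocyte and 5 of 8 endothelial markers had 0 reads throughout. CD4 had 415 and 302 reads with DMSO and 376 and 439 reads with estradiol, most of the leukocyte sum. COL6A1 had 129 and 60 reads with DMSO and 121 and 166 reads with estradiol, the most of the fibroblast markers, and LUM went from 38 and 38 reads to 2 and 7 reads. VWF had 12 to 25 reads. The part of such cells in the results was not tested.

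Most of the genes called lower with estradiol than with DMSO had GC-poor transcripts and most of those called higher had GC-rich ones. With edgeR's quasi-likelihood test, 8759 of 16533 genes (53%) passed a threshold of 0.05 on the Benjamini-Hochberg adjusted p and are named called. Of these, 4855 (29.4% of the genes tested) were higher and 3904 (23.6%) were lower with estradiol. The median log2 fold change over all genes was 0.09. With upper quartile factors in place of TMM the median was -0.07 and the split was 3767 higher and 4830 lower, and on log2(FPKM + 1) it was 2446 and 3724. Both estradiol libraries lay above both DMSO libraries or both below them for 83.4% of the genes, 44.2% above and 39.2% below. The call count depended on which libraries entered the fit. It was 595, of which 9 were higher, without DMSO II, and it was 0 without estradiol II, where 6797 genes had an unadjusted p under 0.05. It was also 0 when all 16 libraries shared 1 estimate of the spread, where an unadjusted p below 0.05 was found for 3506. The libraries added there were of SW480, another cell line, and their spread entered that estimate. The count was 10072 when the 4 libraries were fitted alone.

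Across the 16216 genes of known transcript GC content, Spearman's rho between GC content and the log2 fold change was 0.843. This is a description across genes, which share the same 4 libraries and are not independent. In the decile of genes with the lowest GC content (up to 39.3%), the median log2 fold change was -1.59, with 1349 of 1622 genes called lower and 2 called higher. In the decile with the highest GC content (61.7% or more), the median was 1.14, with 1250 of 1622 genes called higher and 0 called lower. In the middle, between 46.5% and 49.1% GC, 146 genes were called higher and 161 lower. The trend was present in every pair of 1 estradiol and 1 DMSO library, with rho from 0.745 (estradiol I against DMSO I) to 0.861 (estradiol II against DMSO II). It was also present within the groups: rho was 0.527 for estradiol II minus estradiol I and -0.582 for DMSO II minus DMSO I. The log2 difference between the medians of the highest and the lowest decile reached 3.35 between the groups (estradiol II against DMSO II), 0.59 within the estradiol group and -0.80 within the DMSO group. The trend with transcript length was weaker, with rho -0.291.

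**Figure D1:**
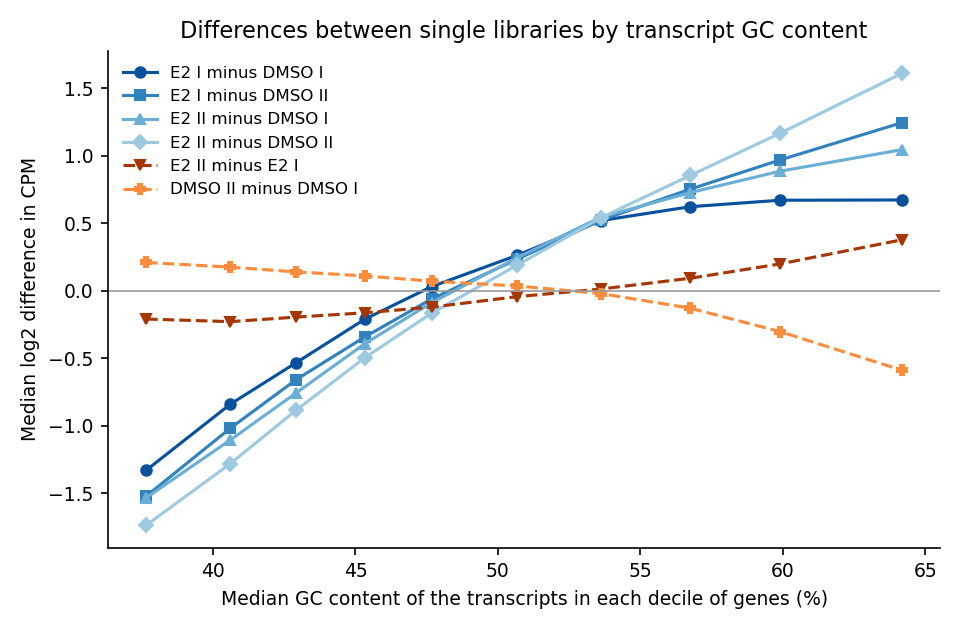
Median log2 difference in CPM (vertical axis) in 10 equal groups of genes ordered by transcript GC content (horizontal axis, in percent). Solid lines are the 4 pairs of 1 estradiol and 1 DMSO library, and dashed lines the 2 pairs of libraries of the same group. The solid lines climb from between -1.74 and -1.33 to between 0.67 and 1.61, and the dashed lines stay between -0.59 and 0.38.

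**Figure D2:**
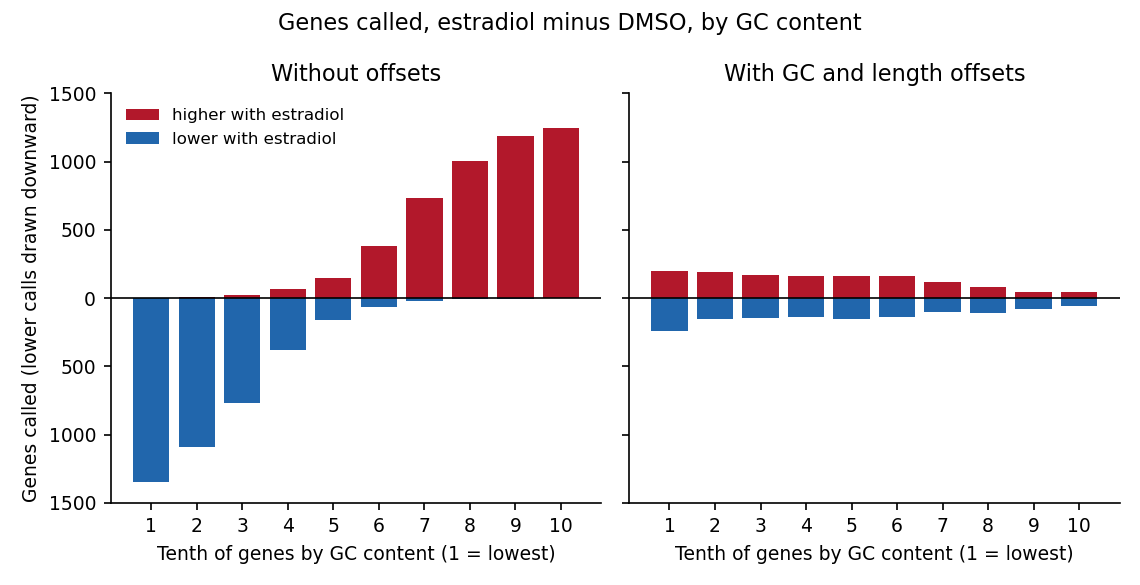
Number of genes called higher (upward bars) or lower (downward bars) with estradiol than with DMSO in each decile of genes by GC content, without offsets (left) and with offsets that remove each library's trend with GC content and length (right). On the left the lower calls gather in the first 3 deciles and the higher calls in the last 4; on the right both directions occur in every decile.

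Set against untreated ERB cells, the DMSO libraries were those with the steep trend. Relative to the mean of the 2 untreated ERB libraries, rho with GC content was -0.551 in DMSO I and -0.674 in DMSO II, and 0.143 in estradiol I and 0.376 in estradiol II. In the other SW620 libraries rho was 0.471 and -0.428 with the empty vector and -0.437 and 0.469 in parental cells. The median difference of the highest minus the lowest decile was -1.64 and -2.40 with DMSO, 0.37 and 0.98 with estradiol, 0.53 and -0.30 with the empty vector and -0.46 and 1.01 in parental cells. The median log2 difference in the lowest decile was 1.01 and 1.23 with DMSO and -0.36 and -0.58 with estradiol. In the highest decile it was -0.63 and -1.17 with DMSO and 0.01 and 0.40 with estradiol. All 3 comparisons share libraries, so their values are only set side by side: edgeR called 8065 genes (48.8%) for DMSO against untreated, 23.6% higher and 25.2% lower. It called 3455 (20.9%) for estradiol against untreated, 11.4% higher and 9.53% lower. With the offsets described below, 7796 (48.1%; 24.6% higher, 23.5% lower) and 6522 (40.2%; 20.5% higher, 19.7% lower) were called.

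**Figure D3:**
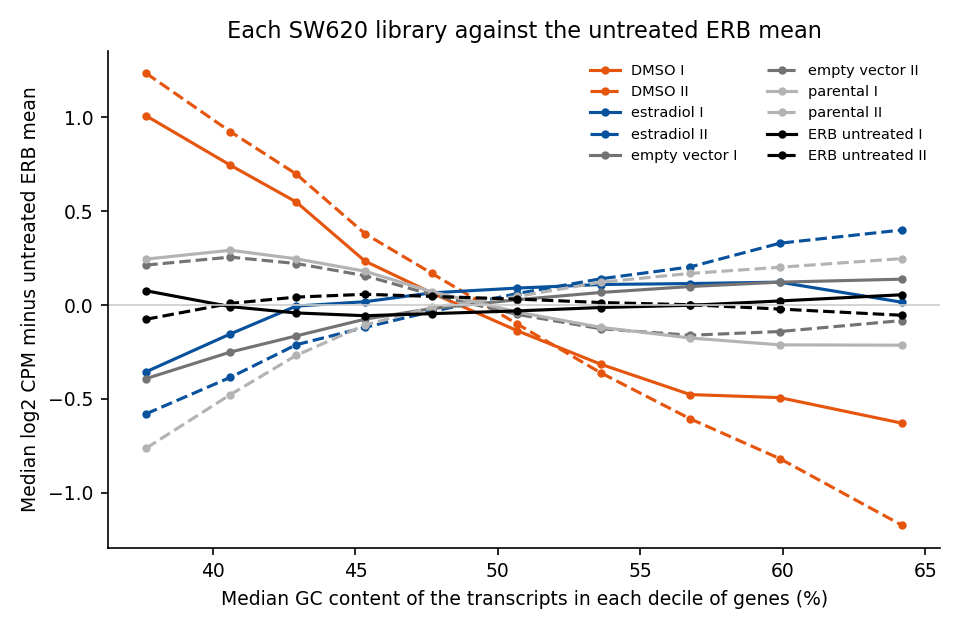
Median log2 CPM minus the mean of the 2 untreated ERB libraries (vertical axis) in 10 equal groups of genes ordered by transcript GC content (horizontal axis, in percent), for each of the 10 SW620 libraries; solid lines are libraries I and dashed lines libraries II. Both DMSO lines fall steeply, from 1.01 and 1.23 to -0.63 and -1.17, and the estradiol lines climb from -0.36 and -0.58 to 0.01 and 0.40.

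The sequences of genes at both ends of this axis, and of C1orf63 near its middle, show what differs. The 120 bases in the middle of the coding sequence follow for 2 of the 3 protein-coding genes with the largest decrease, the 3 with the largest increase and the genes with the largest increase (CMC1) and, after TTK, the largest decrease (C1orf63) once the GC trend was taken out as described below. They were read from GENCODE transcripts (GRCh38), 5′ to 3′, with G and C in capitals.
TTK: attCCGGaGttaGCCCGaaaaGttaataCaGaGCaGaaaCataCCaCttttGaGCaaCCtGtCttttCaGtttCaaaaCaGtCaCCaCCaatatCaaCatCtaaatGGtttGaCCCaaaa
EEA1: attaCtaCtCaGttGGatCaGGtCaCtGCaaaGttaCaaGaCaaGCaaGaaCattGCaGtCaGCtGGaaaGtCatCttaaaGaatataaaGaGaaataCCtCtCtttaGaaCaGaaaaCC
CMC1: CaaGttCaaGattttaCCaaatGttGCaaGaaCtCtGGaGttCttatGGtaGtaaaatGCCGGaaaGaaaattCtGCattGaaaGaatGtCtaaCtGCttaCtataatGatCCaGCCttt
C1orf63: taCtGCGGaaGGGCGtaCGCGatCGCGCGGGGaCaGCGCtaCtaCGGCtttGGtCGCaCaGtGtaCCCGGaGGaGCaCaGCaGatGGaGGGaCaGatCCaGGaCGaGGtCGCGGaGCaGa
SCAND1: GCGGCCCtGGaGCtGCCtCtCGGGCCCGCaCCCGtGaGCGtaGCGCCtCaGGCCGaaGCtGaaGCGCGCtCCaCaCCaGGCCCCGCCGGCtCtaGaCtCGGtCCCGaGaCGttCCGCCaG
CLDN3: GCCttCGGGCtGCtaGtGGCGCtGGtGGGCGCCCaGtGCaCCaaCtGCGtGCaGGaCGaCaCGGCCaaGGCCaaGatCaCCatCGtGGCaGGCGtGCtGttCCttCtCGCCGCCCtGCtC
BHLHA15: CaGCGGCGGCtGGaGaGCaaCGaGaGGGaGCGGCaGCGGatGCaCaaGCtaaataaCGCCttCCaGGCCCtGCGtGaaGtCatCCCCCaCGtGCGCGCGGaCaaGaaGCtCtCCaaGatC
G and C made up 38.3% of the stretch of TTK (ENSG00000112742) and 36.7% in EEA1 (ENSG00000102189). They made up 73.3% in SCAND1 (ENSG00000171222), 67.5% in CLDN3 (ENSG00000165215) and 62.5% in BHLHA15 (ENSG00000180535). CMC1 (ENSG00000187118), which did not fall, had 35.0%, and C1orf63 (ENSG00000117616), which fell, had 64.2%. The whole transcript of C1orf63 held 50.0% G and C and its coding sequence 55.1%, so its stretch is richer than the gene. In GRCh38 the transcripts lie at chr6:80004605-80042527 (TTK, plus strand, 22 exons) and chr12:92770637-92929331 (EEA1, minus strand, 29 exons). Those of the increased genes lie at chr20:35953629-35959472 (SCAND1, minus strand, 3 exons), chr7:73768997-73770270 (CLDN3, minus strand, 1 exon) and chr7:98211427-98212979 (BHLHA15, plus strand, 2 exons). Those of the remaining pair lie at chr3:28241595-28325142 (CMC1, plus strand, 4 exons) and chr1:25242237-25247519 (C1orf63, minus strand, 5 exons).

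The largest decreases with estradiol were in GC-poor transcripts, several of them of mitotic genes. Levels here and below are TMM-scaled CPM. TTK, a kinase of the spindle checkpoint, stood at 3.85 and 6.58 CPM in DMSO I and II and at 0.272 and 0.209 CPM in estradiol I and II. Its log2 fold change was -4.38 (SE 0.65, edgeR adjusted p = 0.00687). ASPM, which organises spindle poles, had 7.23 and 6.64 CPM with DMSO and 0.681 and 0.209 CPM with estradiol (log2 -3.93, SE 0.54, adjusted p = 0.00687). The groups did not overlap for either gene, and both estradiol libraries were also below the untreated ones, at 3.78 and 2.14 CPM for TTK and 1.52 and 1.69 CPM for ASPM. Before TMM scaling, 3 reads equal 0.199 CPM in estradiol I and 0.197 CPM in estradiol II. TTK in both estradiol libraries and ASPM in estradiol II lay near that level, so the sizes of these decreases are uncertain. HMMR, a hyaluronan receptor that also acts on the mitotic spindle, had 10.8 and 13.0 CPM with DMSO and 1.16 and 0.697 CPM with estradiol (log2 -3.67, SE 0.54). KIF20B, a kinesin of cytokinesis, had 5.68 and 7.03 CPM with DMSO and 0.544 and 0.488 CPM with estradiol (log2 -3.60, SE 0.59).

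Other genes with large decreases had other roles. COPS2, a subunit of the COP9 signalosome that removes NEDD8 from cullins, had 20.7 and 26.1 CPM with DMSO and 1.63 and 1.53 CPM with estradiol (log2 -3.87, SE 0.52, adjusted p = 0.00687). STAG2, a cohesin subunit, had 59.8 and 74.4 CPM with DMSO and 6.47 and 6.56 CPM with estradiol (log2 -3.36, SE 0.63). EEA1, the tether of early endosomes, had 5.54 and 6.26 CPM with DMSO and 0.408 and 0.349 CPM with estradiol (log2 -3.93, SE 0.44). Each of these genes was high in both DMSO libraries and low in both estradiol libraries, with the untreated ERB libraries between them. PUS7L, N4BP2, GMFB, CLK4 and NEMF completed the 12 largest decreases, with log2 fold changes from -3.75 to -3.48. The 12 transcripts had a GC content of 33.7% (COPS2) to 38.1% (CLK4), below that of the median gene (49.1%).

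The largest increases were smaller and lay mostly in GC-rich transcripts, at 49.0% (S100A11P1) to 71.0% GC (BHLHA15). Of the called genes, 707 were lower and 48 higher by a log2 fold change of 2 or more. CLDN3, a tight junction claudin, had 3.38 and 1.79 CPM with DMSO and 7.42 and 13.9 CPM with estradiol (log2 2.02, SE 0.45, edgeR adjusted p = 0.00721). BHLHA15, a transcription factor of secretory cells, had 3.38 and 1.60 CPM with DMSO and 7.35 and 13.3 CPM with estradiol (log2 2.02, SE 0.42). MIF, a secreted cytokine with tautomerase activity, had 24.5 and 11.9 CPM with DMSO and 49.5 and 82.1 CPM with estradiol (log2 1.84, SE 0.33). In all of them the 2 groups did not overlap, and of the 4 libraries DMSO II was the lowest and estradiol II the highest. The untreated ERB libraries stood at 8.81 and 5.30 CPM for CLDN3, 1.72 and 1.41 CPM for BHLHA15 and 130 and 110 CPM for MIF. SCAND1 went from 30.7 and 12.7 CPM to 56.1 and 107 CPM (log2 1.90, SE 0.40), MTFP1, a mitochondrial fission factor, from 2.07 and 1.41 CPM to 5.24 and 7.67 CPM (log2 1.87, SE 0.32). Untreated levels were 69.2 and 63.5 CPM for SCAND1 and 8.15 and 7.55 CPM for MTFP1. FUOM, MZT2B and the histone gene HIST3H2A were the other named genes of the 12, with log2 fold changes of 1.86, 1.84 and 1.81. The remaining 4, S100A11P1, CHCHD2P6, TIMM8BP2 and RPL13P2, are named as copies of expressed genes, so that how their reads were split from those of the parent gene is uncertain.

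**Figure D4:**
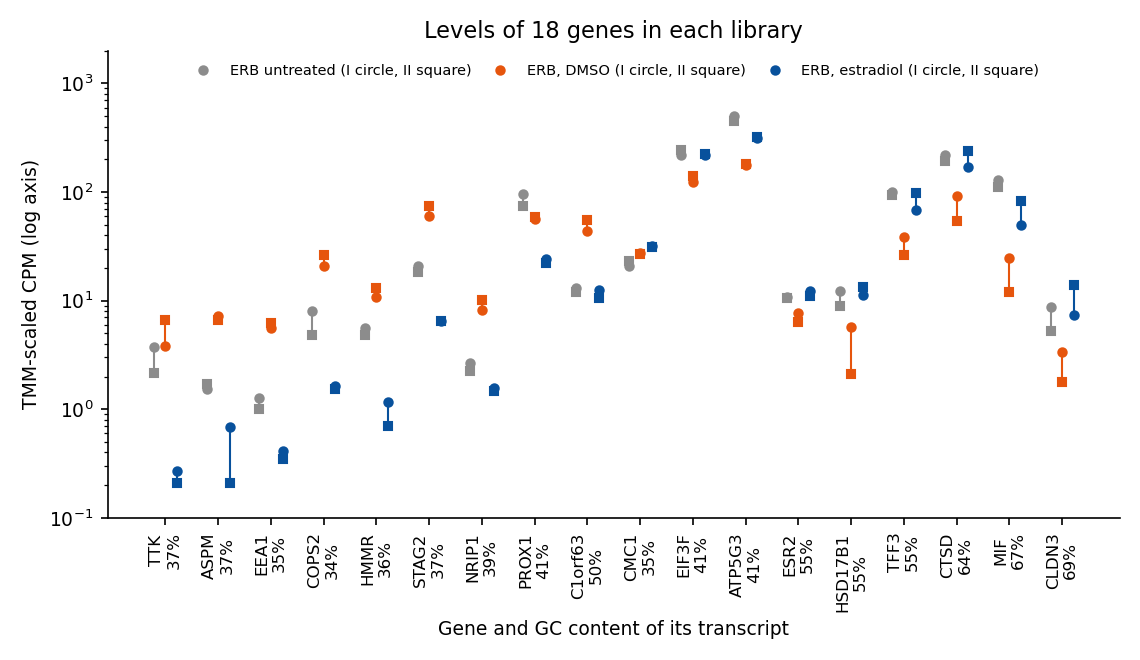
TMM-scaled CPM (vertical, log axis) of 18 genes named in the text in the untreated ERB, DMSO and estradiol libraries, with library I as a circle, library II as a square and a line joining them; the GC content of each transcript stands under its name. GC-poor genes such as STAG2 fall from 59.8 and 74.4 CPM with DMSO to 6.47 and 6.56 CPM with estradiol, and GC-rich genes such as CTSD climb from 91.1 and 54.4 CPM to 171 and 239 CPM.

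The comparison was then refitted with offsets that flatten, library by library, the curve of level against GC content and transcript length. With these offsets 2650 of 16216 genes (16.3%) were called by edgeR, 1346 higher (8.3%) and 1304 lower (8.04%), and rho with GC content was 0.018. Of these calls, 1548 had also been made in the same direction without offsets, which is 58.4% of the calls with offsets and 17.7% of those without, and 167 had been made in the opposite direction. The count of calls with offsets was 48 without DMSO I, and 0 without DMSO II, without estradiol I or without estradiol II. Before adjustment those 3 fits had 3716, 4040 and 3432 genes below 0.05. With all 16 libraries 0 were called, and 1949 lay below 0.05 before adjustment.

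Several of the mitotic and other GC-poor genes stayed lower with offsets than genes of like GC content. TTK had a log2 fold change of -2.81 (SE 0.47, adjusted p = 0.0150), ASPM of -2.27 (SE 0.40, adjusted p = 0.0156), HMMR of -2.06 (SE 0.28, adjusted p = 0.0143) and COPS2 of -1.91 (SE 0.22, adjusted p = 0.00749). CLK4, a kinase of splicing factors, had -2.11 (SE 0.30). Genes of ordinary or high GC content were also lower. C1orf63, at 50.0% GC, had 44.1 and 55.0 CPM with DMSO and 12.5 and 10.5 CPM with estradiol, with a log2 fold change of -2.35 with offsets (SE 0.24, adjusted p = 0.00749) and -2.10 without. Its untreated level, 13.0 and 11.9 CPM, was close to that with estradiol. HNF4G, a nuclear receptor of the intestinal epithelium, had 5.82 and 6.07 CPM with DMSO and 1.23 and 0.837 CPM with estradiol (log2 -2.09 with offsets, SE 0.39, adjusted p = 0.0157). CSAD, an enzyme of taurine synthesis at 59.8% GC, had 11.9 and 8.75 CPM with DMSO and 5.17 and 4.46 CPM with estradiol (log2 -2.02 with offsets, SE 0.31, adjusted p = 0.0145; -1.10 without).

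Genes that stood highest with offsets were GC-poor transcripts that did not share the fall of their neighbours on the GC axis. CMC1, a factor of cytochrome c oxidase assembly, had 27.3 and 27.2 CPM with DMSO and 31.8 and 30.9 CPM with estradiol, a log2 fold change of 0.20 without offsets (adjusted p = 0.348) and of 2.07 with them (SE 0.37, adjusted p = 0.0157). ATP5G3, a membrane subunit of ATP synthase, had 177 and 180 CPM with DMSO and 316 and 324 CPM with estradiol (log2 0.84, adjusted p = 0.00994; with offsets 2.01, SE 0.42, adjusted p = 0.0181). EIF3F, a translation initiation factor subunit, had 124 and 141 CPM with DMSO and 221 and 225 CPM with estradiol (log2 0.75, adjusted p = 0.0182; with offsets 2.01, SE 0.45, adjusted p = 0.0209). The groups did not overlap for any of them, and the estradiol libraries of EIF3F stood at the untreated level of 221 and 246 CPM. TMEM261 and SRI, a calcium-binding protein, followed with 2.01 and 1.88 with offsets. An offset moves a gene by what is usual at its GC content and length, so a large value with offsets is a distance from that usual difference. The transcripts taken were 6033 bases long for CMC1, 5484 for ATP5G3, 7540 for EIF3F, 2755 for TMEM261 and 2010 for SRI. Median lengths were 4113.5 and 3295 bases in the 2 deciles of lowest GC content. A form of other GC content or length would give another offset, and which forms the cells expressed was not tested.

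Of the nuclear and membrane estrogen receptors, ESR1, the gene of estrogen receptor alpha, had 0 reads in all 16 libraries. ESR2 had 7.75 and 6.39 CPM with DMSO, 12.2 and 10.9 CPM with estradiol and 10.7 and 10.5 CPM in untreated ERB cells. Both DMSO libraries were the lowest of the 6. Its log2 fold change from DMSO to estradiol was 0.71 (SE 0.23, edgeR adjusted p = 0.0273), and with offsets it was 0.12 (SE 0.16, adjusted p = 0.645). The call was also lost with upper quartile factors (0.55, adjusted p = 0.0673), without a low-count filter (adjusted p = 0.0821), with all 16 libraries (adjusted p = 0.225), on log2(FPKM + 1) (0.20, adjusted p = 0.561) and without any 1 of the 4 libraries (adjusted p from 0.0708 to 0.247). GPER1, a G protein-coupled receptor that binds estradiol, had 12.3 and 7.73 CPM with DMSO and 16.9 and 24.9 CPM with estradiol, against 49.9 and 46.8 CPM untreated (log2 1.06, SE 0.27, adjusted p = 0.0103; with offsets 0.13, adjusted p = 0.524). ESRRA, an orphan receptor related in sequence to the estrogen receptors, went from 53.9 and 37.7 CPM to 96.8 and 123 CPM (log2 1.26, adjusted p = 0.00687; with offsets 0.19, adjusted p = 0.171).

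Of the 19 tested genes of estrogen receptors and estrogen metabolism, 9 were called higher and 3 lower, with a median log2 fold change of 0.71, against 0.09 over all genes. With offsets 4 were called higher and 0 lower, with a median of 0.12 against 0.01. The 4 were HSD17B1 and the near-identical AKR1C1, AKR1C2 and AKR1C3, which are not separate evidence. Over all genes tested the shares were 29.4% higher and 23.6% lower, and 8.3% and 8.04% with offsets. The 17-beta-hydroxysteroid dehydrogenases interconvert estrone and estradiol and related steroids. HSD17B1, which makes estradiol from estrone, had 5.68 and 2.11 CPM with DMSO and 11.4 and 13.4 CPM with estradiol (log2 1.64, SE 0.40, adjusted p = 0.00889; with offsets 1.19, SE 0.31, adjusted p = 0.0315). Its untreated level, 12.4 and 8.91 CPM, was close to that with estradiol. HSD17B10, a mitochondrial member, had 209 and 201 CPM with DMSO and 419 and 457 CPM with estradiol (log2 1.10, adjusted p = 0.00687; with offsets 0.11, adjusted p = 0.395). HSD17B12 and HSD17B11, both near 40.3% GC, moved the other way without offsets. HSD17B12 had 141 and 156 CPM with DMSO and 66.4 and 55.8 CPM with estradiol (log2 -1.28, adjusted p = 0.00978; with offsets -0.17, adjusted p = 0.357), and HSD17B11 had a log2 fold change of -1.35 (with offsets -0.27, adjusted p = 0.164).

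AKR1C1, AKR1C2 and AKR1C3 are ketosteroid reductases of near-identical sequence, so the split of reads among them is uncertain. AKR1C3 had 49.4 and 56.0 CPM with DMSO and 59.9 and 61.7 CPM with estradiol (log2 0.21, adjusted p = 0.278; with offsets 1.14, SE 0.20, adjusted p = 0.0156). AKR1C2 and AKR1C1 were likewise not called without offsets (log2 0.46 and 0.53, adjusted p = 0.160 and 0.150) and called higher with them (1.64 and 1.52, adjusted p = 0.0266 and 0.0314). On log2(FPKM + 1) the signs were the other way for AKR1C1 (-0.08), AKR1C2 (-0.18) and AKR1C3 (-0.14), none of them called. SULT2B1, a steroid sulfotransferase, had 1.31 and 0.831 CPM with DMSO and 3.54 and 4.25 CPM with estradiol (log2 1.83, SE 0.31, adjusted p = 0.00687; with offsets 0.67, adjusted p = 0.0720).

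The classical estrogen response genes are known mostly from breast cancer cells and estrogen receptor alpha. Of 38 such genes 29 were tested, and 13 were called higher and 3 lower, with a median log2 fold change of 0.35. With offsets 4 were called higher and 3 lower, with a median of 0.01, equal to that of all genes to 2 decimals. All genes were called higher in 29.4% and lower in 23.6% of cases, and with offsets in 8.3% and 8.04%, so the counts with offsets are near the background. PGR, the progesterone receptor gene, had 0 reads in all 4 libraries and TFF1 between 0 and 2 reads. TFF3, a trefoil peptide of goblet cells, had 38.5 and 26.6 CPM with DMSO and 68.6 and 97.0 CPM with estradiol (log2 1.35, SE 0.29, adjusted p = 0.00687; with offsets 0.61, adjusted p = 0.0425). CTSD, a lysosomal protease, had 91.1 and 54.4 CPM with DMSO and 171 and 239 CPM with estradiol (log2 1.49, SE 0.30, adjusted p = 0.00687; with offsets 0.38, adjusted p = 0.0347). FKBP4, a co-chaperone of steroid receptors, had 169 and 174 CPM with DMSO and 301 and 308 CPM with estradiol (log2 0.83, SE 0.19, adjusted p = 0.00791; with offsets 0.67, adjusted p = 0.0247).

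For each of these 3 genes the groups did not overlap and the untreated ERB libraries were above both DMSO libraries, at 101 and 94.4 CPM for TFF3, 218 and 193 CPM for CTSD and 464 and 454 CPM for FKBP4. NRIP1, a corepressor of nuclear receptors, went the other way, from 8.12 and 10.0 CPM with DMSO to 1.57 and 1.46 CPM with estradiol (log2 -2.57, SE 0.58, adjusted p = 0.00733; with offsets -1.10, adjusted p = 0.0337). CYP26B1, a retinoic acid hydroxylase, had 1.22 and 1.60 CPM with DMSO and 0.749 and 0.767 CPM with estradiol, and was called lower with offsets only (log2 -0.87, adjusted p = 0.0538; with offsets -1.45, adjusted p = 0.0246). KRT19 and SLC9A3R1 were called higher without offsets (log2 1.30 and 1.11) and not with them (adjusted p = 0.236 and 0.507). CCND1, the gene of cyclin D1, had 174 and 154 CPM with DMSO and 146 and 138 CPM with estradiol (log2 -0.21, adjusted p = 0.330). GREB1, among the most estrogen-responsive genes of breast cancer cells, had 0.845 and 0.831 CPM with DMSO and 0.681 and 1.05 CPM with estradiol, with a log2 fold change of 0.04 (adjusted p = 0.940; with offsets -0.21, adjusted p = 0.730).

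Regulators tied to ERB in earlier colon cancer work were described next. Of the 9 tested, 1 was called higher and 4 lower, and with offsets 1 higher and 2 lower, against 29.4% and 23.6% of all genes and 8.3% and 8.04% with offsets. MYC, a transcription factor of growth, had 624 and 557 CPM with DMSO, 729 and 699 CPM with estradiol and 289 and 310 CPM untreated. Its log2 fold change was 0.27 (SE 0.14, edgeR adjusted p = 0.131), and with offsets it was of the opposite sign, -0.69 (SE 0.19, adjusted p = 0.0346). PROX1, a homeobox regulator, had 56.8 and 58.9 CPM with DMSO and 24.4 and 22.1 CPM with estradiol (log2 -1.32, SE 0.40, adjusted p = 0.0197; with offsets -0.08, adjusted p = 0.734). MYB had 17.3 and 20.3 CPM with DMSO and 11.5 and 10.5 CPM with estradiol, both far under the untreated 68.0 and 68.9 CPM (log2 -0.77, adjusted p = 0.0390; with offsets -0.05, adjusted p = 0.810). MIR17HG, the host transcript of the miR-17-92 cluster, had 1.46 and 1.34 CPM with DMSO and 0.544 and 0.209 CPM with estradiol (log2 -1.87, adjusted p = 0.0173; with offsets -0.46, adjusted p = 0.583). Without DMSO II or without estradiol II the calls of PROX1 (adjusted p = 0.0750 and 0.117), MYB (0.106 and 0.176) and MIR17HG (0.0741 and 0.135) were lost, as they were on log2(FPKM + 1) (0.269, 0.0604 and 0.245).

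The cell cycle inhibitors of that group differed from each other. CDKN1B (p27) had 30.7 and 27.5 CPM with DMSO and 16.3 and 15.1 CPM with estradiol, and was called lower both without offsets (log2 -0.89, SE 0.28, adjusted p = 0.0235) and with them (-0.81, SE 0.22, adjusted p = 0.0354). CDKN1A (p21) had 1.93 and 2.24 CPM with DMSO and 3.74 and 3.35 CPM with estradiol (log2 0.77, adjusted p = 0.0465; with offsets -0.02, adjusted p = 0.966). ETV5, an ETS factor downstream of MAPK signalling, was called higher with offsets only (log2 0.34, adjusted p = 0.0720; with offsets 0.42, adjusted p = 0.0480). Without any 1 of the 4 libraries the calls without offsets were lost for CDKN1B (adjusted p from 0.0639 to 0.133) and CDKN1A (0.118 to 0.244), and the latter also with upper quartile factors (0.103) and DESeq2 (0.118).

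Core circadian clock genes, whose products form interlocked feedback loops, were called in both directions. Of 22 tested, 9 were called higher and 8 lower, beside 29.4% and 23.6% of all genes. With offsets 1 was called higher and 2 lower, near the 8.3% and 8.04% of all genes. Within the pair of REV-ERB repressors, NR1D1 (59.5% GC) went from 12.4 and 9.01 CPM to 22.8 and 26.2 CPM (log2 1.19, adjusted p = 0.00687; with offsets 0.33, adjusted p = 0.0829). NR1D2 (38.5% GC) went from 20.9 and 21.0 CPM to 6.33 and 4.39 CPM (log2 -1.96, adjusted p = 0.00866; with offsets -0.51, adjusted p = 0.150). Of the activators, CLOCK had a log2 fold change of -1.88 (with offsets -0.21, adjusted p = 0.513) and ARNTL of -0.76 (with offsets -0.42, adjusted p = 0.113). Those called with offsets included TIMELESS (0.43, adjusted p = 0.0316) and the cryptochrome CRY1 (-0.76, adjusted p = 0.0428). PER2 stood at 24.7 and 21.5 CPM with DMSO and 22.7 and 22.6 CPM with estradiol (log2 -0.03, adjusted p = 0.920).

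Among the gene lists, nuclear long noncoding RNAs (median GC 43.1%) had a median log2 fold change of -1.47 and genes of G2 and mitosis (43.2%) of -0.92, whereas Notch pathway genes (62.2%) had 0.79. With offsets these medians were -0.59, -0.13 and -0.09. Of 35 genes of G2 and mitosis, 6 were called higher and 17 lower, and with offsets 2 and 9. Of 18 Notch genes, 9 were called higher and 0 lower, and none was called with offsets. Of the 409 zinc finger genes with symbols that start with ZNF, a group chosen after values were seen, 75 were called higher and 183 lower, and with offsets 14 and 61. The shares over all genes, beside which these counts stand, were 29.4% higher and 23.6% lower, and 8.3% and 8.04% with offsets.

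**Figure D5:**
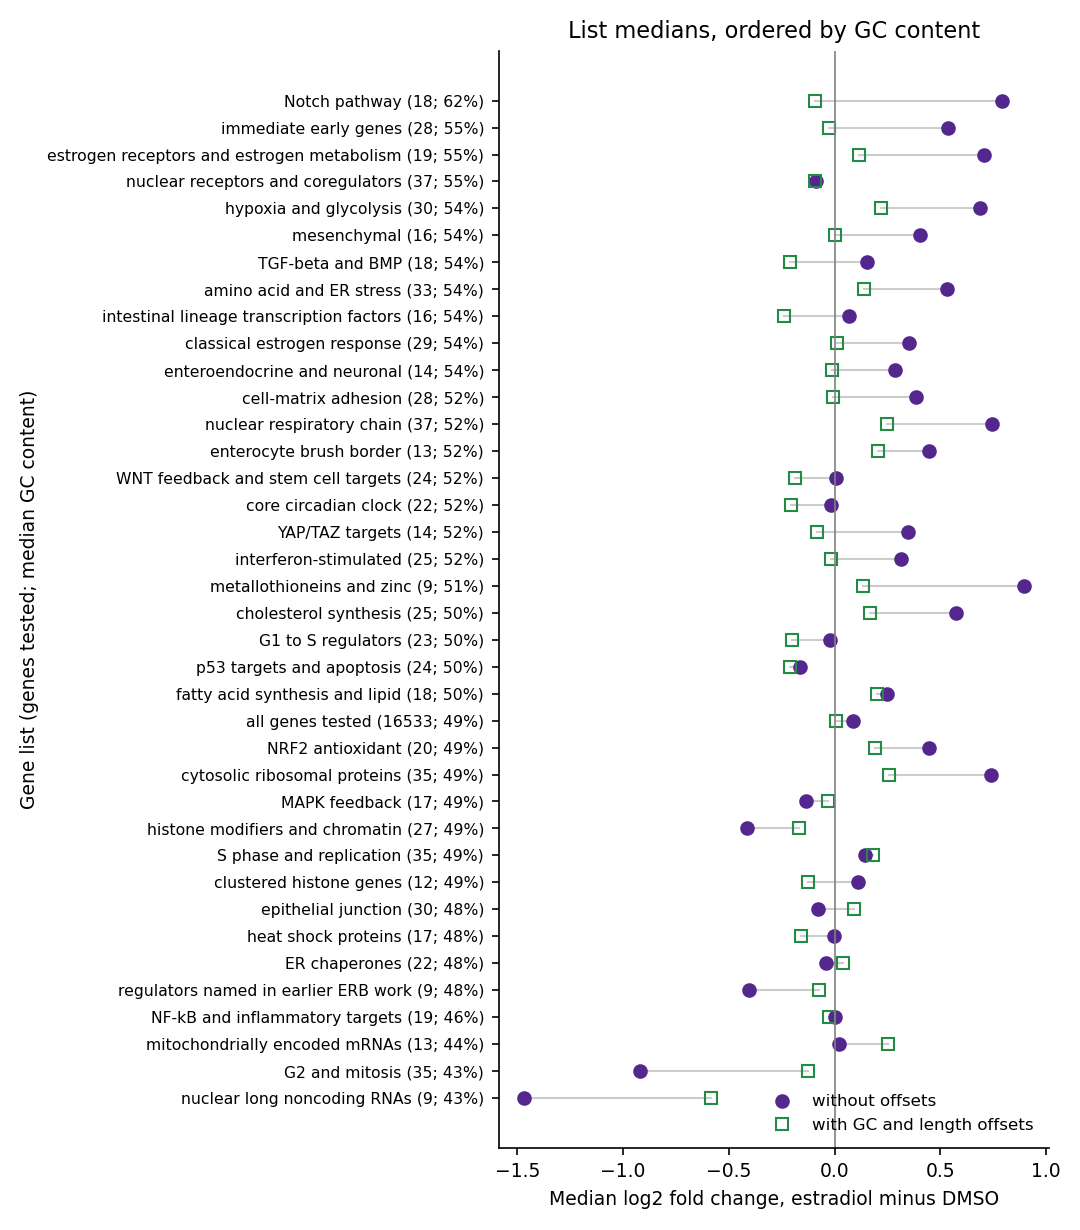
Median log2 fold change, estradiol minus DMSO (horizontal axis), of the gene lists with 9 or more tested genes, ordered by the median GC content of their transcripts (vertical axis, with the number of genes tested and that GC content); filled circles are without offsets and open squares with GC and length offsets. The medians span -1.47 to 0.89 without offsets and -0.59 to 0.26 with them.

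Among genes of translation and respiration, more were called higher than lower with estradiol, though fewer than 1 in 2 with offsets. Of 35 cytosolic ribosomal protein genes, 23 were called higher and 2 lower, and 11 and 1 with offsets (medians 0.74 and 0.26), against 29.4% and 23.6% of all genes and 8.3% and 8.04% with offsets. Many of these genes have processed copies in the genome, so their counts are uncertain. RPLP1 had 678 and 409 CPM with DMSO and 1176 and 1657 CPM with estradiol (log2 1.38, adjusted p = 0.00687; with offsets 1.28, adjusted p = 0.0181). RPS3 was called higher in both fits (log2 0.97, with offsets 1.35, adjusted p = 0.0174), and RPL18 only without offsets (log2 1.28, with offsets 0.10, adjusted p = 0.512). Of 37 nuclear genes of the respiratory chain, 24 were called higher and 0 lower, and 14 and 1 with offsets (medians 0.75 and 0.25). Of 13 mitochondrially encoded mRNAs, 0 were called without offsets, and with them 2 were called higher and 0 lower (medians 0.02 and 0.25). NDUFV1, which carries the flavin of complex I, had 229 and 164 CPM with DMSO and 414 and 492 CPM with estradiol (log2 1.21, adjusted p = 0.00687; with offsets 0.34, adjusted p = 0.0420). NDUFB2 was called in both fits (log2 0.93, with offsets 1.28, adjusted p = 0.0157), CYC1 only without offsets (log2 1.32, with offsets 0.16, adjusted p = 0.266) and COX7C only with them (log2 0.23, with offsets 1.43, adjusted p = 0.0157). Against untreated cells, 29 of the 37 were called lower with DMSO and 6 with estradiol, without offsets. Over all genes tested, 25.2% and 9.53% were called lower in those comparisons.

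Of 9 tested genes on the list of nuclear long noncoding RNAs, 1 was called higher and 6 lower, and with offsets 2 and 5, beside 29.4% and 23.6% of all genes and 8.3% and 8.04% with offsets. MALAT1, a nuclear speckle RNA, had 78.8 and 101 CPM with DMSO and 13.0 and 12.8 CPM with estradiol (log2 -2.80, SE 0.40, adjusted p = 0.00687; with offsets -1.50, SE 0.16, adjusted p = 0.00749). NEAT1, the scaffold of paraspeckles, had 76.4 and 83.1 CPM with DMSO and 25.7 and 24.4 CPM with estradiol (log2 -1.67, adjusted p = 0.00687; with offsets -0.91, adjusted p = 0.0157). TUG1 was also called lower in both fits (log2 -1.47, with offsets -0.59, adjusted p = 0.0163). All 3 were high with DMSO, and for NEAT1 the estradiol libraries lay within the untreated range of 17.9 to 27.8 CPM. GAS5, a small nucleolar RNA host, had 563 and 648 CPM with DMSO and 882 and 939 CPM with estradiol (log2 0.59, adjusted p = 0.0118; with offsets 1.36, adjusted p = 0.0150). SNHG1, another host, had 1486 and 1745 CPM with DMSO and 1776 and 1823 CPM with estradiol, and was called only with offsets (log2 0.16, adjusted p = 0.516; with offsets 0.90, adjusted p = 0.00810).

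Genes of amino acid and endoplasmic reticulum stress were high in both treated groups. Of 33 tested, 30 were called higher with DMSO and 32 with estradiol than in untreated ERB cells, with medians of 2.38 and 2.63. Over all genes tested, 23.6% and 11.4% were called higher in these comparisons, which share the untreated libraries. Between estradiol and DMSO, 18 were called higher and 5 lower, and 4 and 1 with offsets, against 29.4% and 23.6% of all genes and 8.3% and 8.04% with offsets. SHMT2, the mitochondrial serine hydroxymethyltransferase, had 1479 and 1270 CPM with DMSO, 2874 and 3062 CPM with estradiol and 947 and 955 CPM untreated (log2 between estradiol and DMSO 1.11, adjusted p = 0.00687; with offsets 0.54, adjusted p = 0.0213). SLC7A11, the cystine transporter, had 29.5 and 32.3 CPM with DMSO, 7.15 and 7.04 CPM with estradiol and 2.58 and 1.69 CPM untreated. Its log2 fold change between estradiol and DMSO was -2.12 (adjusted p = 0.00687) and with offsets -0.27 (adjusted p = 0.224).

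Replication, chromatin and epithelial genes gave a mixed picture. RFC4, a subunit of the clamp loader, had 64.2 and 74.9 CPM with DMSO and 34.6 and 38.0 CPM with estradiol (log2 -0.94, adjusted p = 0.00687; with offsets -0.69, adjusted p = 0.0150). MCM2, of the replicative helicase, had 200 and 163 CPM with DMSO and 363 and 390 CPM with estradiol, both below the untreated 814 and 805 CPM (log2 1.05, adjusted p = 0.00687; with offsets 0.33, adjusted p = 0.0554). SUZ12, a core subunit of Polycomb repressive complex 2, had 19.1 and 24.4 CPM with DMSO and 2.52 and 3.14 CPM with estradiol (log2 -2.94, adjusted p = 0.00687; with offsets -1.44, adjusted p = 0.0157). EPCAM, an epithelial adhesion molecule, had 197 and 222 CPM with DMSO and 96.0 and 86.3 CPM with estradiol (log2 -1.20, adjusted p = 0.00687; with offsets -1.12, adjusted p = 0.0157). KRT8, a simple epithelial keratin, had 1841 and 1332 CPM with DMSO and 3424 and 4381 CPM with estradiol (log2 1.30, adjusted p = 0.00687; with offsets 0.42, adjusted p = 0.0454). FLNA, an actin crosslinker, was called higher in both fits (log2 1.26, with offsets 0.46, adjusted p = 0.0335). In bulk libraries a change in the kinds of cells and a change in RNA per cell cannot be told apart.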

How the data were processed

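Messenger RNA libraries of SW620 cells were prepared, per the labels' protocols, with a kit that keeps the strand. The authors deposited read counts per gene and FPKM values per gene for 16 libraries, of SW620 and SW480 cells, with 0 further per-sample columns. The tools named in the submitters' processing notes are Cufflinks 2.1.1, HTSeq 0.6.1, TopHat2 2.0.4, Picard 1.29 and SAMtools, and the build is GRCh37. The sources used here give neither the tool behind each table nor the use of strand in counting, so reads of overlapping antisense genes cannot be told apart. The deposited counts, whole numbers with unequal totals, were used as raw counts. The FPKM values, scaled by the authors to length and library size, entered only as an alternative, on log2(FPKM + 1) and log2(FPKM + 0.1).

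Counts of the 10 SW620 libraries were filtered with filterByExpr (16533 genes), scaled with TMM factors and fitted in edgeR 4.0.16 (R 4.3.3) by quasi-likelihood with 5 groups of 2, with Benjamini-Hochberg adjustment and two-sided tests at 0.05. SEs derive from the F statistic. The SW480 libraries were left out of the main fit. An earlier account of these data reports that their empty vector pair differed far more between replicates than any SW620 pair. A pooled fit of 16 libraries was an alternative, as were RLE and upper quartile factors, other filters, DESeq2 1.42.0, limma 3.58.1, a replicate block, a minimum of 1.5-fold and leaving out single libraries. Offsets were natural splines of 5 degrees of freedom in GC content and log2 length, per library, on log2 CPM with a prior count of 2. GC content and length came from GENCODE transcripts of GRCh38, matched by gene identifier for 98.1% of genes. The longest principal transcript of a gene was taken where there was one. This choice replaced the longest transcript of any kind after values were seen, because the latter included retained-intron forms. Both fits were also run on simulated counts, with the outcome not reported here.

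The comparison, the 42 gene lists and the naming rule were chosen with earlier results of these data known. Named were the receptors, up to 12 called genes each way with the greatest absolute change (5 CPM or more, no overlap), up to 8 each way with offsets, up to 3 per list, and members of the estrogen, ERB and clock lists. KRT8, EPCAM and FLNA came from the per-list rule. Some named members and 1 sequence are not reported here.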

Additional observations from a re-analysis of the deposited data

How the results depend on the processing

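The direction of the trend with GC content held in the alternatives run without offsets: rho was 0.795 to 0.855 when 1 of the 4 libraries was left out and 0.888 when only genes averaging at least 10 CPM were kept. With GC and length offsets it was 0.018, which is what the offsets are built to do.

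The number of genes called for estradiol against DMSO was 8759. It was 0 with all 16 libraries, 5256 on log2(FPKM + 0.1), 1396 on log2(FPKM + 1) without a filter on low values, 2827 against a minimum of 1.5-fold, 2650 with GC and length offsets and 2158 with GC offsets. Leaving out 1 library gave 0 to 6405. It lay within 1.5 times under RLE factors (8728), upper quartile factors (8597), no low-count filter (8579), a 1 CPM filter (8749), DESeq2 (8310), limma-voom (8902), log2(FPKM + 1) (6170), the 4 libraries alone (10072) and the 6 SW620 libraries with ERB (10572). Upper quartile factors shifted the median of all genes from 0.09 to -0.07 and turned the split into 3767 higher and 4830 lower; no filter gave 4308 and 4271, and log2(FPKM + 1) gave 2446 and 3724, with a median of -0.13. Fits added after the data were seen gave, with offsets, 2686 with splines of 10 degrees of freedom, 2785 with the longest transcript, 5293 with the 4 libraries alone, 0 with all 16 and 0 to 48 when 1 library was left out. For DMSO against untreated cells, 8065 became 1234 with all 16 libraries. For estradiol against untreated cells, 3455 became 348 with all 16 libraries, 6522 with GC and length offsets, 6084 with GC offsets and 5987 with offsets and the replicate block. The cause of these moves was not tested.

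With the replicate block, 7614 genes were called, and 1396 with the block and GC and length offsets. Whether the numbers I and II pair the libraries is not known. Deviations of DMSO and estradiol libraries of the same number correlated at -0.67, and at -0.24 after the offsets. Over other pairs of SW620 groups the values without offsets ran from -0.89 to 0.62. The deviations also carry each library's trend with GC content, so these correlations cannot decide the pairing. With the numbers of the DMSO group crossed, added after the data were seen, 8054 were called.

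Of the 86 named genes, 74 were called. All 74 lost the call with all 16 libraries and without estradiol II, and 54 without DMSO II. With GC and length offsets 46 of the 74 kept call and direction, and 9 of the other 12 gained a call. Signs turned, with a call in at least 1 of the fits compared, for MYC, at -0.69 with GC and length offsets and -0.58 with GC offsets, and for CDKN1A, at -0.021 with GC and length offsets, -0.026 with GC offsets and -0.022 with offsets and the replicate block, none of the 3 called. Values called in neither fit changed sign under 1 or more alternatives for MYC, GREB1, PER2, CCND1, CMC1, COX7C, SNHG1, AKR1C1, AKR1C2 and AKR1C3. Among the DMSO and estradiol libraries, the smallest total of 12743940 reads makes 3 reads equal to 0.235 CPM. This limits genes near that level, such as TTK, ASPM and MIR17HG with estradiol.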
